A study of Arabidopsis thaliana with 4 samples.

Results

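Intervals of 2 kb or more without a single nucleosome call were examined in the pericentromeres of Arabidopsis thaliana inflorescences. In each library they were chosen by the positions of the calls alone. As pericentromere, 5 Mb of each chromosome were taken, 2.5 Mb to either side of an assumed midpoint (15, 3.6, 14, 4 and 12 Mb on chromosomes 1 to 5), 25 Mb in all, and every distance of at least 2000 bp between neighbouring calls there was kept as a gap. This gave 709 and 689 gaps in the top1a-2 libraries, replicates 1 and 2, and 670 and 667 in the Ler libraries, 2735 gaps in all. They stood among 1253269 intervals between neighbouring calls in the 4 lists together. The number and length of the gaps are therefore a description and were not tested.

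The study mapped nucleosomes by micrococcal nuclease digestion, gel purification of the band of mononucleosome length and sequencing. The tissue was inflorescences with unopened buds, ground together, from top1a-2 plants and from Ler plants, with 2 libraries of each genotype. Ler is the accession Landsberg erecta, and the libraries titled TOP1α are from top1a-2, an allele of TOP1α whose nature the labels leave unstated, in plants of the same ecotype. Each library was deposited as a list of calls, each with its position, fuzziness (how widely the position varies), size, confidence score and votes from each strand. The lists held 335395 and 315609 calls in top1a-2 and 315744 and 286541 in Ler. Read depth is unknown, and the labels do not say whether each library had plants of its own, so p-values reflect the spread among these libraries alone, and that spread may be technical.

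Pericentromeres flank the centromere cores and are rich in transposons and tandem satellite repeats, packed into heterochromatin with dense DNA methylation and histone H3 lysine 9 dimethylation. The windows used here run across the assumed midpoints, so they are not limited to the flanks and take in any core sequence there. TOP1α, the gene of the top1a-2 allele, encodes a DNA topoisomerase I, which relaxes supercoils by nicking a single strand, and it is known in Arabidopsis to promote the silencing of transposons. Micrococcal nuclease cuts the linker between nucleosomes, and a call stands where protected fragments pile up. A stretch without calls can thus lack nucleosomes, or it can lack reads placed there, as happens in repeats. The lists hold no read coverage, so these cannot be told apart, and the word gap here means only the absence of calls.

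Both top1a-2 libraries had more gaps than both Ler libraries, while the genotypes overlapped in the number of pericentromeric calls, with 59952 and 58531 in top1a-2 against 59242 and 55592 in Ler. There were 699 ± 14.1 gaps in top1a-2, compared with 668.5 ± 2.12 in Ler (SD, n = 2 each), a difference of 30.5. Per Mb of pericentromere this was 28.4 and 27.6 gaps in the top1a-2 libraries, against 26.8 and 26.7 in the Ler libraries. The gaps covered 3701 and 3504 kb in top1a-2 and 3413 and 3352 kb in Ler. As a share of the pericentromeres that was 14.8% and 14.02% in top1a-2, against 13.7% and 13.4% in Ler. The genotype means were 14.4% ± 0.556 in top1a-2, compared with 13.5% ± 0.173 in Ler (SD, n = 2), 0.880 percentage points apart.

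The genotypes did not overlap in the number or in the share. The most gaps, the largest share and the most calls were all found in top1a-2 replicate 1, and without that library the share differed by 0.486 percentage points. When the calls with scores below the lower quartile of each list were left out, the share was 29.2% and 30.7% in top1a-2 and 30.4% and 31.9% in Ler, which turned the difference to -1.20 percentage points with overlapping genotypes. With each list cut to its 286541 highest-scoring calls, the number of calls in the shortest list, the difference was 4.93 percentage points and the genotypes overlapped, with 24.3% and 22.0% in top1a-2 against 23.1% and 13.4% in Ler, whose replicate 2 is the list left uncut, so the size and the direction of the difference in share depended on how low-scoring calls were treated. Of all intervals between neighbouring pericentromeric calls, gaps made up 1.18% and 1.18% in the top1a-2 libraries and 1.13% and 1.20% in the Ler libraries, and here the genotypes overlapped.

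**Figure D1:**
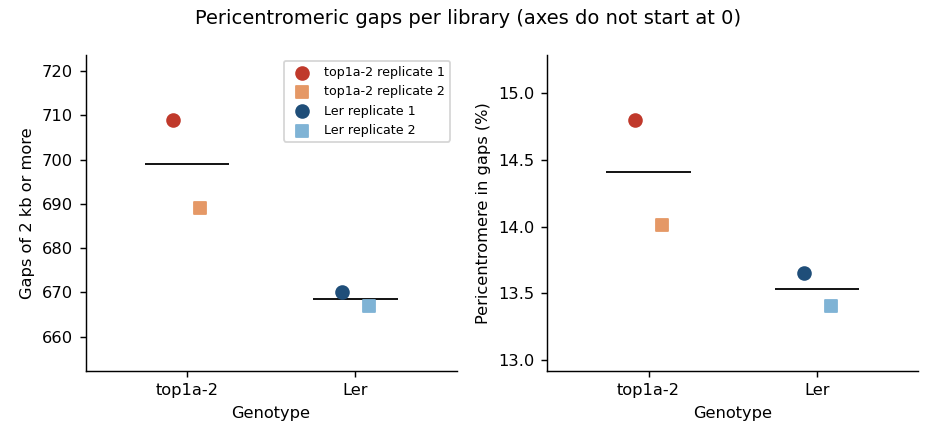
Number of gaps of 2 kb or more (left) and percent of the 25 Mb of pericentromere that they cover (right), with 1 point per library, circles for replicate 1, squares for replicate 2 and lines at the genotype means. Both top1a-2 libraries, with 709 and 689 gaps, stand above both Ler libraries, with 670 and 667, on axes that do not start at 0.

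Most gaps were short, and a small number of very long ones held much of the length. The median gap was 3212 and 3220 bp long in the top1a-2 libraries and 3188 and 3357 bp in the Ler libraries. Gaps under 3 kb made up 44.9% and 43.0% of all gaps in top1a-2 and 45.1% and 42.4% in Ler, and held only 20.7% and 20.6% of the gap length in top1a-2 and 21.4% and 20.3% in Ler. Gaps of 10 kb or more numbered 58 and 56 in top1a-2 and 50 and 47 in Ler. They held 35.7% and 34.0% of the gap length in top1a-2 and 33.9% and 31.8% in Ler.

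Among the 5 classes of length, the genotypes did not overlap in number only in that of 10 to 20 kb. It held 37 and 33 gaps in the top1a-2 libraries, against 24 and 28 in the Ler libraries, or 505 and 459 kb in top1a-2 against 338 and 399 kb in Ler. In the means that class differed by 114 kb, of 220 kb in all, while gaps over 20 kb, with 21 and 23 in top1a-2 and 26 and 19 in Ler, overlapped. The classes under 10 kb overlapped in number as well. The 6 assignments of libraries to genotypes allow no exact permutation p below 0.33. Among 5 classes such a separation can therefore arise without any difference between the genotypes, and it was not tested. Class membership also depends on calls that stand alone within a longer gap and divide it, as in a stretch of chromosome 1 described below.

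The limit of 2000 bp fell within a continuous range of distances. Just inside it, intervals from 2000 to under 2100 bp numbered 61 and 35 in top1a-2 and 34 and 45 in Ler. Just outside it, intervals from 1900 to under 2000 bp numbered 55 and 56 in top1a-2 and 51 and 45 in Ler. Intervals of 500 to 1000 bp ran the other way in the means, with 6910 and 7788 in top1a-2 against 7372 and 9925 in Ler, where the genotypes overlapped and Ler replicate 2 was highest.

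**Figure D2:**
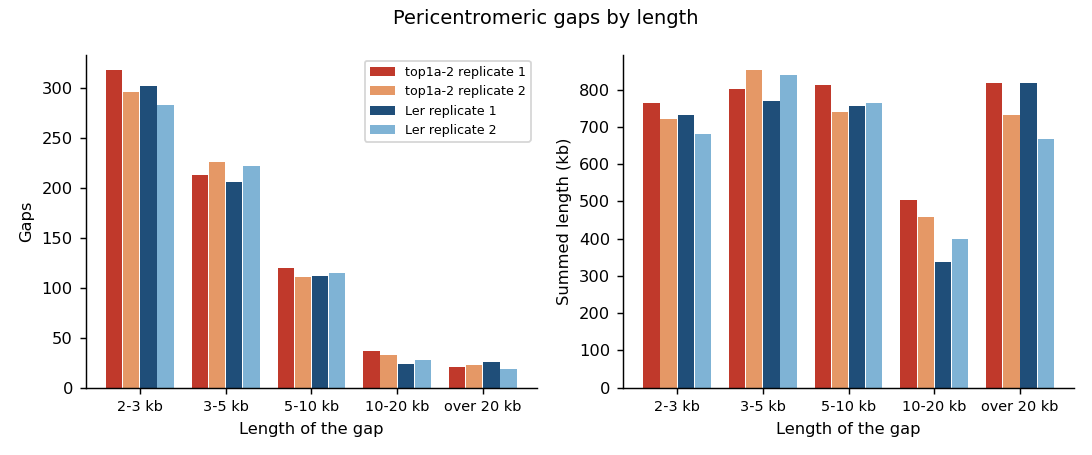
Number of gaps (left) and their summed length in kb (right) in 5 classes of length, with 1 bar per library. Bars fall in number from the class of 2 to 3 kb to that of 10 to 20 kb but stay within 338 to 852 kb in length, and only in the class of 10 to 20 kb do both top1a-2 bars stand above both Ler bars in both panels.

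Gaps were placed very unevenly among the chromosomes and in the same order in the 4 libraries. Chromosome 1 had the largest share of its pericentromere in gaps, 22.4% and 20.8% in the top1a-2 libraries and 20.8% and 20.7% in the Ler libraries. Chromosome 3 followed with 17.8% and 16.8% in top1a-2 and 16.2% and 15.5% in Ler, and chromosome 5 with 13.8% and 13.5% in top1a-2 and 12.9% and 13.0% in Ler. Chromosome 2 had 11.04% and 10.8% in top1a-2 and 10.3% and 10.5% in Ler. Chromosome 4 was lowest with 9.05% and 8.26% in top1a-2 and 8.14% and 7.32% in Ler.

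Both top1a-2 libraries exceeded both Ler libraries in this share on chromosomes 2, 3, 4 and 5, and on chromosome 1 the libraries overlapped. The difference was largest on chromosome 3, at 1.44 percentage points. Chromosome 2 had 133 and 134 gaps in either genotype, so that its share differed through length and not through number. Chromosome 3 had the most gaps, 180 and 176 in top1a-2 against 166 and 169 in Ler. On chromosome 4 the numbers overlapped, with 113 and 99 gaps in top1a-2 and 102 and 92 in Ler.

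Placement along the pericentromeres differed between the chromosomes, and a high average beside the assumed midpoints was carried by chromosomes 1 and 3. Averaged over the 5 chromosomes, gaps covered 28.7% and 27.2% of the sequence within 0.5 Mb of a midpoint in top1a-2 and 26.6% and 26.1% in Ler. From 1 to 1.5 Mb away they covered 8.79% and 8.79% in top1a-2 and 8.28% and 8.06% in Ler. The densest bin of 0.5 Mb lay on chromosome 1 from 14.5 to 15 Mb, where gaps took 63.3% and 59.2% in top1a-2 and 57.9% and 60.0% in Ler. On chromosome 3 the densest bin was 13.5 to 14 Mb, with 49.8% and 49.9% in top1a-2 against 47.8% and 45.6% in Ler.

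Chromosomes 2, 4 and 5 departed from this placement. On chromosome 2 the bin from 3.6 to 4.1 Mb, beside the midpoint, was the lowest of that pericentromere, with 3.15% and 2.79% in top1a-2 and 1.85% and 1.87% in Ler. On chromosome 4 the bin from 3.5 to 4 Mb had 2.56% and 2.55% in top1a-2 and 3.15% and 0.904% in Ler. These low bins adjoined the densest bins of the same chromosomes on the other side of the midpoint. On chromosome 5 the densest bin lay 2 to 2.5 Mb from the assumed midpoint, from 14 to 14.5 Mb, with 38.5% and 38.3% in gaps in top1a-2 and 38.1% and 37.4% in Ler. At the other extreme, the bin of chromosome 1 from 13.5 to 14 Mb had 0.911% and 0.448% in gaps in top1a-2 and 0.557% and 0.424% in Ler. The differences between these bins were far larger than those between the libraries.

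**Figure D3:**
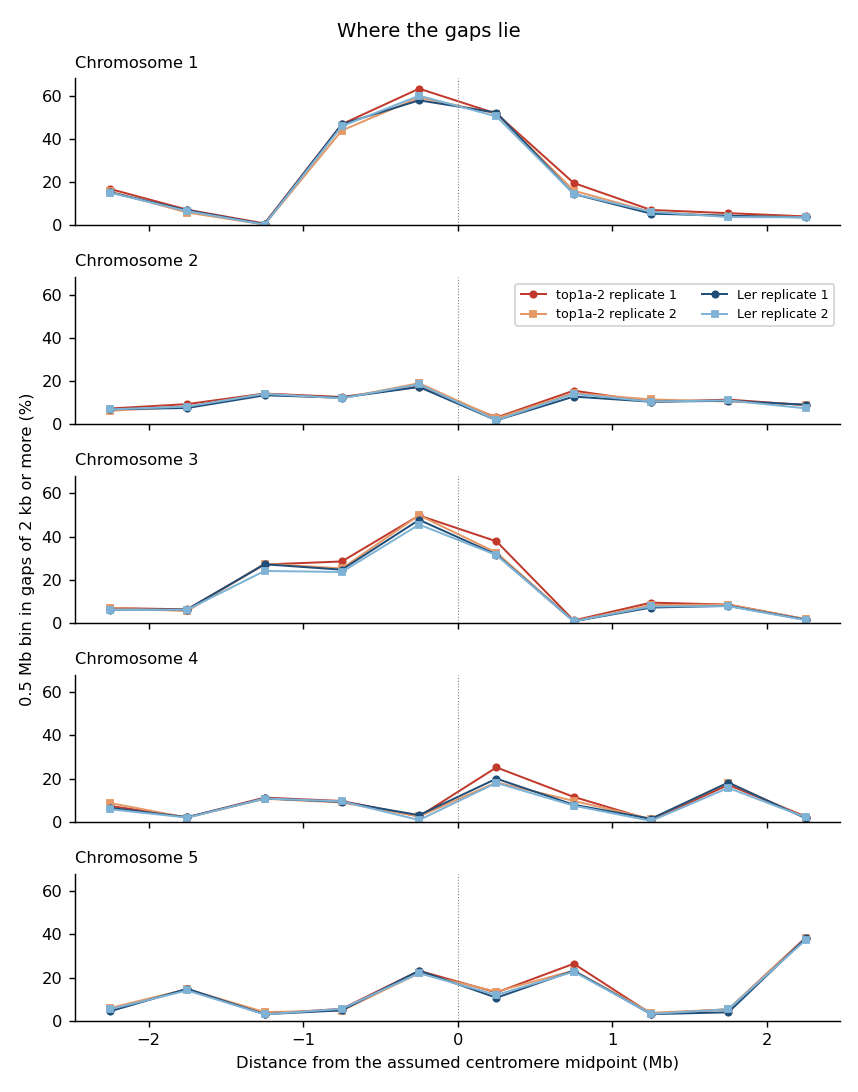
Percent of each bin of 0.5 Mb lying in gaps of 2 kb or more (vertical) against the distance of the bin from the assumed centromere midpoint in Mb (horizontal), with 1 panel per chromosome and 1 line per library. Chromosomes 1 and 3 peak beside the midpoint, at 63.3% and 49.8% in top1a-2 replicate 1, and chromosome 5 peaks at the right edge.

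Most of the gap length was shared by all libraries. Gaps were matched between lists by a reciprocal overlap of at least 50%, meaning that the overlap covered at least that share of the longer gap. A match in each of the other 3 lists was found for 58.7% and 60.4% of the gaps in the top1a-2 libraries and 61.8% and 62.1% in the Ler libraries. Counted by bases, 76.3% and 80.6% of the gap sequence of the top1a-2 libraries and 82.8% and 84.3% of that of the Ler libraries lay in a gap of all 4 lists. In all, 2824 kb, or 11.3% of the pericentromeres, lay in a gap of every list, and 4246 kb, or 17.0%, in a gap of at least 1 list.

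The share of gaps with all 3 matches was lowest in the shortest class and did not go on increasing with length. Of the gaps under 3 kb, 39.6% and 45.3% had all matches in top1a-2 and 45.7% and 49.1% in Ler, against 74.2% and 70.8% in top1a-2 and 74.3% and 68.9% in Ler at 3 to 5 kb. For gaps of 10 kb or more it was 74.1% and 67.9% in top1a-2 and 70.0% and 74.5% in Ler. Joined by their matches, the gaps formed 968 loci. Of these, 449 had a gap in all 4 lists, 134 in 3, 128 in 2 and 257 in a single list.

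The loci with all 4 lists were 100 on chromosome 1, 96 on chromosome 2, 115 on chromosome 3, 56 on chromosome 4 and 82 on chromosome 5. At 436 of them each list had exactly 1 gap, and these could be compared border by border. Their borders spread over a median of 314.5 bp among the 4 lists, with quartiles of 98 and 1211 bp. Only 41 of the 872 borders lay within 20 bp in all 4 lists, and 40.9% lay within 200 bp. The same border was a median of 98 bp apart between the top1a-2 libraries and 88 bp apart between the Ler libraries.

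Gaps with and without matches in all 3 other lists both had a larger summed length in top1a-2. Those with all 3 matches summed to 2451 and 2313 kb in the top1a-2 libraries, against 2290 and 2267 kb in the Ler libraries. Gaps without all 3 matches summed to 1249 and 1191 kb in top1a-2, against 1123 and 1085 kb in Ler. Sequence that was a gap in no other list came to 261 and 155 kb in top1a-2 and to 89.5 and 92.5 kb in Ler. Top1a-2 replicate 1 stood highest on each of these sums. At the 436 loci, counted separately, the median length was 3871 and 3722 bp in top1a-2 against 3590 and 3638 bp in Ler.

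Some of the longest recurring gaps had similar lengths in all libraries. Others, with mean lengths over the lists of 62562 bp on chromosome 5 and 50468 bp on chromosome 1, did not and are described below. The longest, on chromosome 1, ran from 14564906 to 14641407 in top1a-2 replicate 1, as the deposited lists count positions. Its length was 76501 and 76469 bp in top1a-2, compared with 74376 and 79623 bp in Ler. Another, on the same chromosome, from 15053588 to 15102961 in top1a-2 replicate 1, was 49373 and 49287 bp long in top1a-2, compared with 49368 and 49327 bp in Ler. One more, from 14433156 to 14481300 in that library, was 48144 and 47529 bp long in top1a-2, compared with 48042 and 47640 bp in Ler. At each of them the genotypes overlapped in length. No gene or repeat could be assigned because no genome of this build was used here.

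Elsewhere the libraries differed in lone calls within a locus. The longest recurring locus of chromosome 5 lay between 14105332 and 14225205 and was undivided over 108668 bp in top1a-2 replicate 1, the longest gap of any list. Its matched gap was 36318 bp in top1a-2 replicate 2, and 32989 and 72272 bp in Ler replicates 1 and 2. These 4 are joined through one another, and the shortest and the longest do not overlap by 50% of the longer. Calls of very small size stood inside it. Across the stretch of 123 kb from 14106087 to 14228768 in top1a-2 replicate 2, the list held 3 calls with a median size of 4.31 bp.

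Lone calls also stood in a stretch of chromosome 1 that began at 14644825 in top1a-2 replicate 2. It held gaps of 19189 and 35323 bp in top1a-2 replicate 1 and of 19285 and 24239 bp in top1a-2 replicate 2, against a single gap of 51881 bp in Ler replicate 1 and gaps of 27735 and 24220 bp in Ler replicate 2. The call dividing it in top1a-2 replicate 1 had a score of 0.0689. The longest run of gaps that were separated by single calls was 197.1 and 197.3 kb in the top1a-2 libraries and 195.4 and 195.5 kb in the Ler libraries and lay on chromosome 1, from 15021683 to 15218818 in top1a-2 replicate 1. This run and the stretch of chromosome 5 were chosen after their values were seen. The run held 3 and 8 calls in top1a-2 and 8 and 6 in Ler, with median sizes from 7.43 to 10.2 bp.

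On the other chromosomes the longest recurring gaps were shorter. On chromosome 3, from 13587426 in top1a-2 replicate 1, the gap was 33812 and 26926 bp long in top1a-2, compared with 27842 and 26800 bp in Ler. On chromosome 2, from 4757382 in that library, it was 17405 and 14842 bp in top1a-2, compared with 14673 and 17178 bp in Ler. On chromosome 4, from 5646026, it was 15216 and 13774 bp in top1a-2, compared with 14543 and 12739 bp in Ler. The genotypes overlapped on chromosomes 2, 3 and 4 alike, and on chromosome 3 the left borders agreed within 1 kb while the right border of top1a-2 replicate 1 lay farthest out.

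Few gaps were found in both libraries of one genotype with nothing overlapping in the other. Among the 968 loci there were 16 such loci in top1a-2 and 6 in Ler. All of them were short, with a longest mean length of 3514 bp in top1a-2, compared with 2682 bp in Ler. Gaps in exactly both top1a-2 lists by the matching rule numbered 23, those in exactly both Ler lists 15, and those in 1 list of each genotype only 90. The last number pools every pairing of a top1a-2 list with a Ler list. Loci without any overlap were not counted for such mixed pairs, so these counts do not mark gaps as particular to a genotype. The longest of the top1a-2 loci lay on chromosome 4 from 4443796 to 4447420, where the gaps were 3403 and 3624 bp long. The Ler libraries had 3 and 5 calls there, with median sizes of 79.1 and 25.9 bp and no score above 0.589.

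The next of the top1a-2 loci were alike. On chromosome 1 from 15625682 to 15629051 the gaps were 3334 and 3330 bp long, and each Ler library had 2 calls, with median sizes of 63.2 and 67.7 bp. On the same chromosome from 16092905 to 16097216 they were 3417 and 2859 bp long, with 5 and 4 calls in the Ler libraries. The longest of the Ler loci lay on chromosome 1 from 14302780 to 14305702, where the top1a-2 libraries had 4 and 3 calls with median scores of 0.230 and 0.206, and the gaps in Ler were 2441 and 2922 bp long. The highest scores of these calls were 1.38 and 1.14, and their median sizes were 77.9 and 120.7 bp. At the other Ler loci named by length, the highest top1a-2 scores were 0.0701 and 0.773 on chromosome 2 and 1.22 and 0.951 on chromosome 1. Across the 6 loci named by length, 3 of each genotype, the other genotype had between 2 and 5 calls per library.

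Taken over all gaps, the calls that other lists placed inside a gap were sparse and had low median scores. In gaps with all 3 matches the other lists had 0.182 and 0.157 calls per kb inside the gaps of the top1a-2 libraries and 0.155 and 0.138 inside those of the Ler libraries. This follows from the matching, which asks for a gap at the same place in each other list. In the gaps without all matches the other lists had 0.398 and 0.313 calls per kb for top1a-2 and 0.257 and 0.248 for Ler. The pericentromeres as a whole had 2.22 to 2.40 calls per kb. Of all gap sequence, only 7.05% and 4.42% in top1a-2 and 2.62% and 2.76% in Ler lay in no other list's gap. Gaps without all matches thus also lay largely within gaps of other lists, and their low density is partly set by the choice. Between 63.9% and 66.6% of the calls in these unmatched gaps had a size under 100 bp, and their median score was 0.129 to 0.155. The median number of another list's calls in an unmatched gap was 2 and 1 for top1a-2 and 1 and 1 for Ler.

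The calls at the borders differed from other pericentromeric calls in size, score and votes, none of which the choice of gaps used. There were 1270 and 1229 bordering calls in the top1a-2 libraries and 1188 and 1189 in the Ler libraries, or about 2.01% to 2.14% of pericentromeric calls. Their median size was 88.4 and 84.4 bp in top1a-2, compared with 77.6 and 72.5 bp in Ler. The other pericentromeric calls had a median of 143.8 and 142.0 bp in top1a-2, compared with 143.7 and 141.7 bp in Ler, near the length of DNA that a nucleosome protects. The bordering calls were smaller by 62.1 ± 6.6 bp (SD over 4 libraries), lower in 4 of 4 (exact sign-flip p = 0.125, the smallest that 4 libraries allow). The contrast was smaller or reversed under filters of the calls, after each of which gaps and borders were found anew. Without scores below the lower quartile, bordering calls differed from others by -9.22 ± 0.899 bp (SD, n = 4). Without calls under 100 bp they were larger, by 12.1 ± 1.48 bp, but that filter cuts the measured size itself.

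Small sizes were far more frequent among bordering calls than among others. A size under 50 bp was given to 37.8% and 40.3% of them in top1a-2 and 41.4% and 42.8% in Ler, against 3.5% and 3.61% of other calls in top1a-2 and 3.97% and 4.24% in Ler. Between 29.2% and 33.5% had a size of 100 to 200 bp. Calls that stood alone between a pair of gaps, 148 and 149 in top1a-2 and 152 and 145 in Ler, were the smallest, with a median size of 25.9 and 16.1 bp in top1a-2, compared with 19.8 and 17.9 bp in Ler.

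Bordering calls also had low confidence. Their median score was 0.315 and 0.231 in the top1a-2 libraries and 0.238 and 0.210 in the Ler libraries, against 0.872 and 0.757 for other calls in top1a-2 and 0.844 and 0.774 in Ler. The median votes of other calls, both strands summed, were 8.95 and 10.7 times those of bordering calls in top1a-2 and 12.5 and 13.1 times in Ler. Votes from the forward and the reverse strand were at least 4-fold apart in 57.2% and 56.2% of bordering calls in top1a-2 and in 57.9% and 55.2% in Ler, against 20.4% and 15.1% of other calls in top1a-2 and 19.5% and 14.2% in Ler. Without scores below the lower quartile, the votes of bordering calls were 0.598 and 0.557 of those of other calls in top1a-2 and 0.653 and 0.574 in Ler. For score and for votes the difference with all calls had the same direction in 4 of 4 libraries (exact sign-flip p = 0.125 each).

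The change of size and score did not set in at 2 kb. Calls whose wider neighbouring interval was under 1 kb had median sizes of 141 to 145 bp in the 4 libraries. At 1 to 1.5 kb the medians were 108 to 123 bp, at 2 to 3 kb 92.4 to 101 bp, at 5 to 10 kb 57.0 to 76.5 bp and beyond 10 kb 22.9 to 35.7 bp. Scores had medians of 0.906 to 1.09 at 0.5 to 1 kb, 0.275 to 0.364 at 1 to 1.5 kb, 0.239 to 0.294 at 2 to 3 kb and 0.169 to 0.249 beyond 10 kb. Small and weak calls were thus already frequent beside intervals of 1 to 2 kb.

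**Figure D4:**
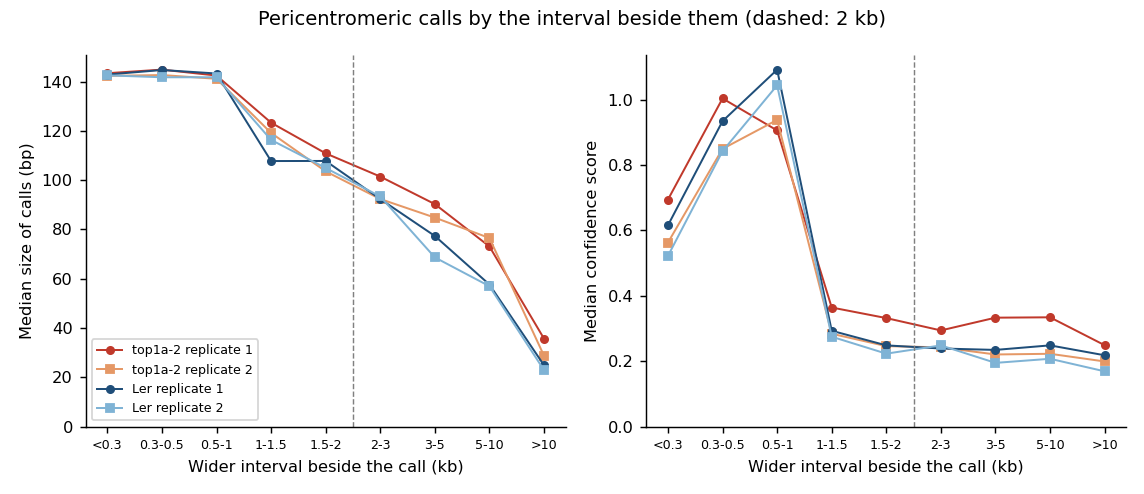
Median size in bp (left) and median confidence score (right) of pericentromeric calls in 9 classes of the wider of the 2 intervals beside the call, in kb, with 1 line per library and a dashed line at 2 kb. Size stays at 141 to 145 bp up to 1 kb and declines to 22.9 to 35.7 bp beyond 10 kb, and score drops between the class of 0.5 to 1 kb and that of 1 to 1.5 kb.

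Between the genotypes, bordering calls were larger in both top1a-2 libraries. The median was 86.4 ± 2.87 bp in top1a-2, compared with 75.1 ± 3.57 bp in Ler (SD, n = 2), 11.3 bp apart and without overlap, and 11.1 bp apart after subtraction of the other calls of the same library (exact two-sided permutation p = 0.33 each). With 2 libraries against 2 this is the smallest p that the 6 assignments allow. Without calls under 100 bp the medians were 157 bp in top1a-2, compared with 159 bp in Ler, the other way round, and without scores below the lower quartile the genotypes differed by 0.815 bp. Bordering calls under 100 bp made up 54.4% and 55.8% in top1a-2, compared with 57.9% and 58.0% in Ler, and among other calls small ones were likewise less frequent in top1a-2, with 9.26% and 9.17% in top1a-2 against 10.7% and 10.8% in Ler.

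The median votes of bordering calls relative to other calls were 0.112 and 0.0930 in top1a-2 and 0.0803 and 0.0765 in Ler, without overlap (exact permutation p = 0.33). The score relative to other calls, at 0.362 and 0.304 in top1a-2 and 0.282 and 0.272 in Ler, also did not overlap, while the scores themselves did (exact permutation p = 0.33 and 0.667). Mean fuzziness overlapped, with 41.5 and 44.1 in top1a-2, compared with 41.4 and 44.9 in Ler, and was higher in both replicate 2 libraries (exact permutation p = 1). It was higher than in other calls in 4 of 4 libraries, by 4.88 ± 1.56 (SD; exact sign-flip p = 0.125). The medians were close, with 39 and 39 in top1a-2 and 39 and 41 in Ler at the borders, against 38 and 39 for other calls in top1a-2 and 39 and 40 in Ler, and single bordering calls reached 383 to 1418. Mean fuzziness at the borders was lower in 3 of 4 libraries when scores below the lower quartile were left out, and in 4 of 4 without calls under 100 bp, where it differed by -2.72 ± 0.240 (SD). Between the genotypes 11 measures were tested, and their exact permutation p-values were at least 0.611 once adjusted by Benjamini-Hochberg. Those of them computed from call positions, given below, share their source with the choice of gaps.

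The share of calls with a neighbour close by in another list was compared between bordering and other calls. A call of another list lay within 20 bp of 31.3% and 29.6% of them in the top1a-2 libraries and of 28.3% and 29.4% in the Ler libraries, averaged over the other 3 lists. For other pericentromeric calls the share was 24.6% and 24.7% in top1a-2 and 24.6% and 25.6% in Ler. The share was higher at the borders in 4 of 4 libraries, by 4.77 ± 1.37 percentage points (SD; exact sign-flip p = 0.125). It was higher by 7.19 ± 1.79 points without scores below the lower quartile and by 4.69 ± 1.12 without calls under 100 bp. With the same number of top-scoring calls in each list the contrast was 5.35 ± 7.91 points, with -6.27 in Ler replicate 2, the list left uncut. Between the genotypes, the share at the borders was 1.54 points higher in top1a-2 than in Ler without overlap (exact permutation p = 0.33). Each value draws on lists of both genotypes, so the values are not independent and this test cannot decide on a genotype difference. Against the list of the same genotype alone, the share was 31.0% and 26.2% in top1a-2 and 30.1% and 30.4% in Ler. Against the lists of the other genotype it was 31.4% and 31.2% in top1a-2 and 27.4% and 28.9% in Ler. The difference of 1.54 points was 0.703 points without top1a-2 replicate 1 and 3.49 points without top1a-2 replicate 2. The next call outward from a border was a median of 490 and 448 bp away in top1a-2, compared with 468 and 480.5 bp in Ler, with overlap (exact permutation p = 1). Both the share and the outward distance are computed from call positions, which also defined the gaps, so their p-values add no independent support.

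The thinning of calls extended beyond the gaps themselves. Bordering calls left out, the first 1 kb beside a gap held 1.48 and 1.47 calls per kb in the top1a-2 libraries and 1.45 and 1.45 in the Ler libraries. Leaving them out lowers the density of this first 1 kb by construction, since it starts at a bordering call. From 1 to 2 kb away there were 2.14 and 2.14 calls per kb in top1a-2, compared with 2.08 and 2.05 in Ler, and beyond 10 kb 2.91 and 2.79 in top1a-2 and 2.83 and 2.62 in Ler. Median scores went the same way, with 0.531 and 0.412 in the first 1 kb in top1a-2 and 0.461 and 0.392 in Ler, against 0.904 and 0.793 beyond 10 kb in top1a-2 and 0.880 and 0.822 in Ler. Median size in the first 1 kb was 133.9 and 133.6 bp in top1a-2, compared with 133.6 and 130.8 bp in Ler. Within each library these are descriptions, since the nearness of a gap was read from the same positions.

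Neighbouring gaps were separated by runs of few calls. A run held a median of 7 and 7 calls in the top1a-2 libraries and 8 and 7 in the Ler libraries, over 3.62 and 3.74 kb in top1a-2 and 3.84 and 3.66 kb in Ler. Runs of 1 call made up 21.0% and 21.8% of the runs in top1a-2 and 22.9% and 21.9% in Ler. Runs of more than 5 calls numbered 385 and 379 in top1a-2 and 361 and 359 in Ler.

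Corrected for the gaps, by leaving out their length, the pericentromeres came nearer to the arms in density of calls. This rise holds by construction, since gaps hold no calls and cover more of the pericentromeres than of the arms. Over the whole pericentromere there were 2.40 and 2.34 calls per kb in the top1a-2 libraries and 2.37 and 2.22 in the Ler libraries. Outside the gaps there were 2.81 and 2.72 in top1a-2 and 2.74 and 2.57 in Ler. The arms, corrected for their own gaps, had 3.04 and 2.83 in top1a-2 and 2.83 and 2.54 in Ler. The pericentromere thus reached 0.927 and 0.961 of the arm density in top1a-2 and 0.971 and 1.0098 in Ler, where without correction it reached 0.802 and 0.839 in top1a-2 and 0.851 and 0.887 in Ler.

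The correction did not bring the genotypes together in the ratio of pericentromere to arms. The corrected ratio was 0.944 ± 0.0242 in top1a-2, compared with 0.991 ± 0.0272 in Ler (SD, n = 2), a difference of -0.0466 without overlap (exact permutation p = 0.33). It was -0.0295 without top1a-2 replicate 1 and -0.0273 without Ler replicate 2, and -0.0485 with the gaps counted in. The corrected pericentromeric density itself was 2.77 ± 0.0650 calls per kb in top1a-2, compared with 2.66 ± 0.125 in Ler, with overlapping libraries (exact permutation p = 0.667). Ratio and density are both computed from the call positions that defined the gaps, so these p-values add no independent support. On single chromosomes the corrected density did not overlap on chromosome 2, with 2.85 and 2.73 calls per kb in top1a-2, compared with 2.72 and 2.55 in Ler, and overlapped on the other 4.

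Along the chromosomes the correction evened out the density. In part this holds by construction, since leaving out sequence without calls raises the density most in the bins with the most gaps. Among bins of 0.5 Mb the lowest density was 0.836 and 0.928 calls per kb in the top1a-2 libraries and 0.896 and 0.926 in the Ler libraries before correction, and 2.28 and 2.04 in top1a-2 and 2.13 and 1.97 in Ler after it. The SD over the bins was 0.506 and 0.466 calls per kb before and 0.197 and 0.185 after correction in top1a-2, and 0.458 and 0.401 before and 0.171 and 0.138 after it in Ler. The bin of chromosome 5 from 14 to 14.5 Mb, with 38.5% and 38.3% in gaps in top1a-2 and 38.1% and 37.4% in Ler, had 3.0 and 2.83 calls per kb outside them in top1a-2 and 2.92 and 2.61 in Ler.

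**Figure D5:**
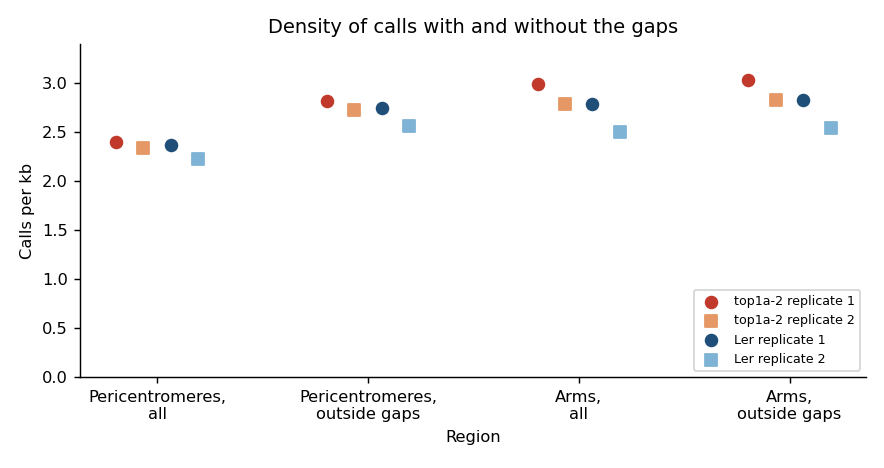
Calls per kb (vertical, from 0) in the pericentromeres and on the arms, over all sequence and outside gaps of 2 kb or more, with 1 point per library. Pericentromeric values move up to 2.81 and 2.72 in top1a-2 and 2.74 and 2.57 in Ler when gaps are left out, while the arms move less.

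Gaps of this length were rare on the arms. The arms held 338 and 329 of them in the top1a-2 libraries and 321 and 318 in the Ler libraries, or 3.67 and 3.57 per Mb in top1a-2 and 3.48 and 3.45 in Ler, over 92.2 Mb. They covered 1.59% and 1.55% of the arms in top1a-2 and 1.5% and 1.47% in Ler. Their median length, 3220.5 and 3204 bp in top1a-2, compared with 3216 and 3220 bp in Ler, was close to that in the pericentromeres, but the longest was 35959 and 35792 bp in top1a-2, compared with 35782 and 35594 bp in Ler. Calls at their borders were larger than those of the pericentromeric gaps, with a median size of 114.0 and 117.5 bp in top1a-2, compared with 111.1 and 113.8 bp in Ler. They were nevertheless smaller than the other arm calls, whose median size ranged from 142.7 to 144.9 bp over the 4 libraries. Between 41.5% and 44.0% of the arm bordering calls had a size under 100 bp, and their median scores ranged from 0.304 to 0.380. Small bordering calls were thus not limited to the pericentromeres. On the arms too, both top1a-2 libraries had more gaps than both Ler libraries, and the share covered was higher too.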

How the data were processed

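Per the labels' protocols, nuclei from inflorescences were digested with micrococcal nuclease, the band near mononucleosome length was cut from a gel, and TruSeq libraries were sequenced on a HiSeq2000. Each deposited list, 1 per library, gives per the file headers the position, fuzziness, size, confidence score and strand votes of every call. The sources used here name no aligner, caller or genome build, and say neither how the deposited score and votes are scaled nor whether the first base is 0 or 1. The mean score is near 1 in each list, and votes were compared only as ratios within a list. The last calls lay 356 to 439 kb before the last genes of the TAIR10.1 table, so this table was not used for positions.

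Distances, overlaps and densities were computed in Python 3.11.15 with numpy 2.4.6 and pandas 2.3.3. A gap ran from call position to call position, with both inside the pericentromere. Whether the midpoints fit that build was not checked. Loci are gaps joined by a reciprocal overlap of 50%. The arms are all other sequence up to the last call. Medians over bordering calls count each call once. Genotypes were compared by exact permutation, two-sided, over all 6 assignments, and bordering with other calls by the exact sign-flip test over 4 libraries. That sign-flip test, the size and score relative to other calls, and the joining of gaps with 1 call between them, were added after the data were seen. Samples were grouped by their titles. The gap finder was tested on simulated data with planted gaps. Named loci are the longest recurring one of each chromosome, the next 3, and the 3 longest found in a single genotype. The members, limits and measures were chosen with earlier results of these data known. Alternatives were other limits, score filters, widths, edges, overlaps, left-out libraries and the replicate block. After each filter of the calls the gaps and their bordering calls were found anew.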

Additional observations from a re-analysis of the deposited data

How the results depend on the processing

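Of 151 alternatives run over 12 results, 126 were counted as the same. Differences counted so kept their direction, and those without a test moved by less than 1 SD between libraries. This still allowed shifts such as -11.5 bp for the median length with 1500 bp. Counts of loci, which have no direction, moved by less than 1.5 times. The 126 include settings that could not change a value, namely the replicate block, the clipping at the limits and, for the share, the joining of gaps. Values are differences, top1a-2 minus Ler. The number of gaps (30.5) was 54 with a limit of 1500 bp, 16 with 3000 bp, 20 without scores below the lower quartile, where the genotypes overlapped, 181.5 with the same number of top-scoring calls kept in each list, and 20 without calls under 100 bp (added after the data were seen). It was 20.5 to 40.5 without 1 library at a time. The share of the pericentromere (0.880 percentage points) was -1.20 without scores below the lower quartile and 4.93 with the same number of top-scoring calls, a setting that trims every list but Ler replicate 2. It was 0.486 without top1a-2 replicate 1 and up to 1.27 without top1a-2 replicate 2. The median length (-56.5 bp) was 108 bp with 3000 bp, 34 bp with the same number of calls, 39.25 bp without calls under 100 bp, and -141 to 28 bp without 1 library. Loci in all 4 lists (449) numbered 245 with 3000 bp, 759 without low scores and 276 with a reciprocal overlap of 75%.

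Corrected density (0.113 calls per kb) was -0.0197 with the same number of calls. Without low scores, the score of bordering calls (0.0487) was -0.00848, their relative votes (0.0240) -0.0361 and their agreement (1.54 points) -3.48. Their size (11.3 bp) was -2.09 bp without calls under 100 bp, 0.815 bp without low scores and 28.4 bp with the same number of calls. Their score ranged from 0.00628 without top1a-2 replicate 1 to 0.0911 without top1a-2 replicate 2. Their fuzziness (-0.351) ranged from -2.09 to 1.39, and their outward distance (-5.25 bp) from -26.25 to 15.75 bp, without 1 library, and that distance was 7 bp within 1.5 Mb and 0.906 bp between edges. For each the cause was not tested. Relative votes ranged from 0.0146 to 0.0333 and corrected density from 0.0245 to 0.201 calls per kb without 1 library. The ratio to the arms kept its direction in every alternative, from -0.0658 to -0.0264. Clipping at the limits changed nothing, since no gap crossed one. With the replicate number as a block the differences are the same by construction, 30.5 gaps among them, and the exact sign-flip p is 0.5 or 1. The deviations of same-numbered libraries from their genotype means, in gap length over 250 bins of 0.1 Mb, correlated with r = 0.0643, and the labels give the numbers no meaning. Unknown read depth and 2 libraries per genotype limit all values.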
